A study of Mus musculus with 6 samples.

Results

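Tubulins are the building blocks of microtubules, and 10 genes of the family were followed here in NMuMG cells, a mouse mammary gland epithelial line that undergoes an epithelial-to-mesenchymal transition under TGFβ. They were taken by symbol from the 21240 genes of the count table and comprise 4 α-tubulins (Tuba1a, Tuba1b, Tuba1c and Tuba4a) and 6 β-tubulins (Tubb2a, Tubb2b, Tubb3, Tubb4b, Tubb5 and Tubb6). All 10 had reads in every library, and 9 passed the filter on low values, which asked for 2 CPM or more (counts scaled to the library size) in 2 or more libraries. Tubb3 did not. Total RNA was sequenced from 3 groups of 2 biological replicates, 6 libraries in all. All cells were without serum and insulin for 6 h beforehand. One group (veh) received the HCl and BSA carrier for 2 h, another (TGFb2h) 5 ng/mL TGFβ1 for 2 h and the third (TGFb12h) 5 ng/mL TGFβ1 for 12 h. The vehicle was sampled at 2 h only, so in the 12 h comparison the cytokine and the longer time without serum cannot be told apart.

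An α and a β subunit pair into the dimer from which microtubules grow, and the cell draws on several isotypes of each, encoded by separate genes with almost identical proteins. The isotypes differ mostly in the acidic tail that motors, associated proteins and modifying enzymes read. Tubulin synthesis is also under feedback: when free dimers accumulate, TTC5 recognizes the first residues of tubulin as it leaves the ribosome and the mRNA is degraded, a process known as autoregulation. In epithelial cells microtubules run along the apical-basal axis and are rearranged when cells take up a migratory shape.

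The residues read in autoregulation are written in the first codons, which are shown because they are the sequence that the feedback works on in these genes. The first 12 coding bases of 9 of the genes follow, with the codons after the start codon in capitals (GENCODE transcripts on NCBIM37, the same build as mm9).
Tuba1a: atgCGTGAGTGC
Tuba1b: atgCGTGAGTGC
Tuba1c: atgCGTGAGTGC
Tuba4a: atgCGCGAGTGC
Tubb2a: atgCGCGAGATC
Tubb2b: atgCGAGAGATC
Tubb3: atgAGGGAGATC
Tubb4b: atgAGGGAGATC
Tubb5: atgAGGGAAATC
The 4 α genes share the residues Met-Arg-Glu-Cys and the 5 β genes shown share Met-Arg-Glu-Ile, while the codon used for arginine differs between them.

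How far the genes can be told apart decides what a count means, because the reads were 50 bases long and reads mapping to several places were discarded. Tuba1a and Tuba1b were identical at 98.3% of aligned coding bases and differed at 23 positions, and Tubb2a and Tubb2b were identical at 96.5%. Across the family, α pairs ranged from 84.7% to 98.3%, β pairs from 80.2% to 96.5% and pairs of an α with a β gene from 53.7% to 55.9%. The following 60 coding bases, 640 to 699 counted from the start codon, hold the most differences among the 3 near-identical α genes, with the 10 differing positions in capitals.
Tuba1a: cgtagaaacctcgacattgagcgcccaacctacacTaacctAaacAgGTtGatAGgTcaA
Tuba1b: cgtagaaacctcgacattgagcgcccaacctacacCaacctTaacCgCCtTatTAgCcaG
Tuba1c: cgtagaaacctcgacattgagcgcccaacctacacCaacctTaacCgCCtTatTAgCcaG
Tuba1b and Tuba1c did not differ from each other in this stretch, whereas Tuba1a differed from both at every capital. By contrast, coding bases 174 to 233 were the same in all 3, so that a read from them belongs to no single gene.
Tuba1a, Tuba1b and Tuba1c: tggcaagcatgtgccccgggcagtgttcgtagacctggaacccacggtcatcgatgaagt
The pair on chromosome 13 shows the same mixture. In coding bases 112 to 171, their most divergent 60-base stretch, 10 positions differed, yet a run of 551 coding bases elsewhere was identical.
Tubb2a: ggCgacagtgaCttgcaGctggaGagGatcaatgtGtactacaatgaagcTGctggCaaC
Tubb2b: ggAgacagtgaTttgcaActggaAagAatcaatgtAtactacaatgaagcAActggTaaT

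Of the 1694 windows of 50 bases in the Tuba1b transcript, 242 (14.3%) occurred at no other place in the genome or in another gene's transcript. The share was 28.0% for Tuba1a, 36.8% for Tuba1c, 41.8% for Tubb4b, 42.3% for Tubb2b and 49.2% for Tubb2a. It was 88.3% for Tubb3 and between 98.2% and 99.6% for Tuba4a, Tubb5 and Tubb6. Within the coding bases alone only 5.38% of Tuba1b windows, 12.7% of Tuba1c windows and 16.4% of Tuba1a windows were unique. The untranslated ends supplied 169 of the 242 unique windows of Tuba1b, 539 of 710 of Tuba1c and 225 of 447 of Tuba1a. Tuba1b and Tuba1c had 1005 windows in common, Tuba1a and Tuba1c 822, Tuba1a and Tuba1b 761, and Tubb2a and Tubb2b 712. Many of the other copies lay in pseudogenes: Tuba1a and Tuba1b windows each met 12 other places holding at least 50 of them, 6 of which overlapped an annotated pseudogene. The counts of these 6 genes with a minority of unique windows therefore come from part of each transcript.

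**Figure D1:**
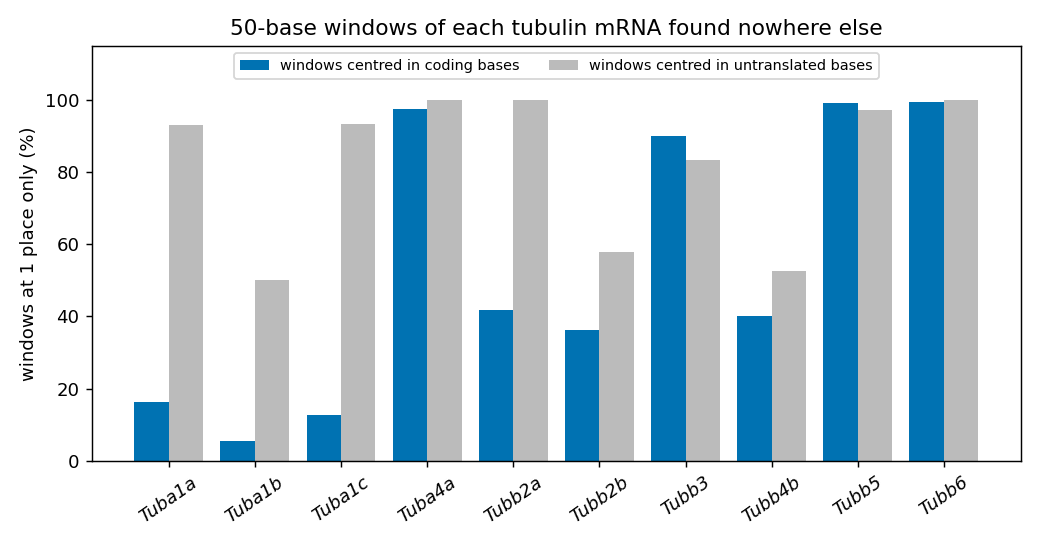
Share of 50-base windows of each tubulin mRNA that were found nowhere else, as percent on the vertical axis, for windows centred in coding bases (blue) and in untranslated bases (grey). Tuba1b has the lowest coding share at 5.38%, while Tuba4a, Tubb5 and Tubb6 are unique almost throughout.

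Library totals ranged from 14705886 to 23786993 counts, and the median absolute log2 difference between replicates over all genes tested was 0.15 in veh, 0.22 in TGFb2h and 0.13 in TGFb12h. The TGFβ targets Smad7, Skil, Ctgf and Snai1 rose at both times. Of 6 epithelial markers, Cdh1 (E-cadherin, 392 CPM in veh) and the keratins Krt8 and Krt18 were abundant, but Epcam had at most 16 counts and Cldn7 at most 7 in any library. The epithelial list did not stay level: of 4 tested, Krt8 was called higher at 2 h (with the replicate block also Cdh1, adjusted p = 0.011) and Krt8, Krt18 and Krt7 at 12 h, and the summed level of the 6 genes went from 3934 and 3295 CPM in veh to 4778 and 4685 at 2 h and 9900 and 9877 at 12 h. Of 6 fibroblast markers, 2 were tested and Col1a1, a collagen chain, was called higher at both times (log2FC 2.59 and 3.51), Thy1 had no count, and the 6 summed to 3.50 to 4.65 CPM in veh, 9.02 to 9.15 at 2 h and 14.8 to 16.5 at 12 h. The 4 myoepithelial or smooth muscle markers summed to 2.80 to 5.29, 9.10 to 12.2 and 6.01 to 9.39 CPM, with 0 called of 1 tested (Krt14 was called higher at 2 h with the replicate block, adjusted p = 0.031). The 4 immune markers summed to 5.09 to 7.32 CPM in any library with 0 called of 1 tested, and the 3 endothelial markers, none tested, to 0.12 to 0.35 CPM in veh and at 2 h and 1.74 to 1.95 at 12 h. The part of these markers in the tubulin values was not tested. Markers of neurons, in which several tubulin isotypes are prominent, summed to 0.26 to 1.02 CPM over 7 genes, and 3 of the 7 had no count in any library. In bulk RNA, a change in the number of cells of a kind and a change in RNA per cell cannot be told apart.

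After 2 h of TGFβ1, 4 of the 9 tubulins tested were higher, namely Tuba1a, Tuba1c, Tubb2b and Tubb6, and 0 were lower. At 12 h the same 4 genes and Tubb5 were higher, again with 0 lower. Among all 11080 genes tested by edgeR's quasi-likelihood test, 9.91% were called higher and 5.25% lower after 2 h. The shares were 21.8% and 21.5% after 12 h, at a Benjamini-Hochberg adjusted p under 0.05. The median log2 fold change (log2FC) of the 9 tubulins was 0.65 at 2 h and 0.56 at 12 h, where the medians over all genes were -0.01 and 0.02. By unadjusted p under 0.05, 6 tubulins were higher at 2 h and 5 at 12 h, with 0 lower. The share of all genes at that looser threshold was not counted, and the shares above do not stand beside these 2 counts. With the replicate number as a block in the same test, 7 tubulins were higher at 2 h, Tuba4a, Tubb2a and Tubb5 being added, and 6 at 12 h, with 0 lower, beside 16.4% of all genes higher and 12.7% lower at 2 h and 27.8% and 27.5% at 12 h. The count at 2 h was 2 with total counts or in a fit of only the 2 groups and 1 to 7 on leaving out a library, fewest without veh replicate 1, 2 without TGFb2h replicate 2 or either 12 h library, and 7 without TGFb2h replicate 1, and at 12 h it was 3 without TGFb12h replicate 1. For the 0 lower, limma-voom and DESeq2 also called 0 at both times, while a fit of only the 2 groups and leaving out either 2 h library called 1 at 12 h, Tubb4b. Summed over the 10 genes, tubulin reads made up 1376 ± 181 CPM in veh, 2022 ± 385 at 2 h and 2035 ± 46.6 at 12 h (mean ± SD, n = 2). CPM here are scaled by TMM factors, which correct for differences in library composition.

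**Figure D2:**
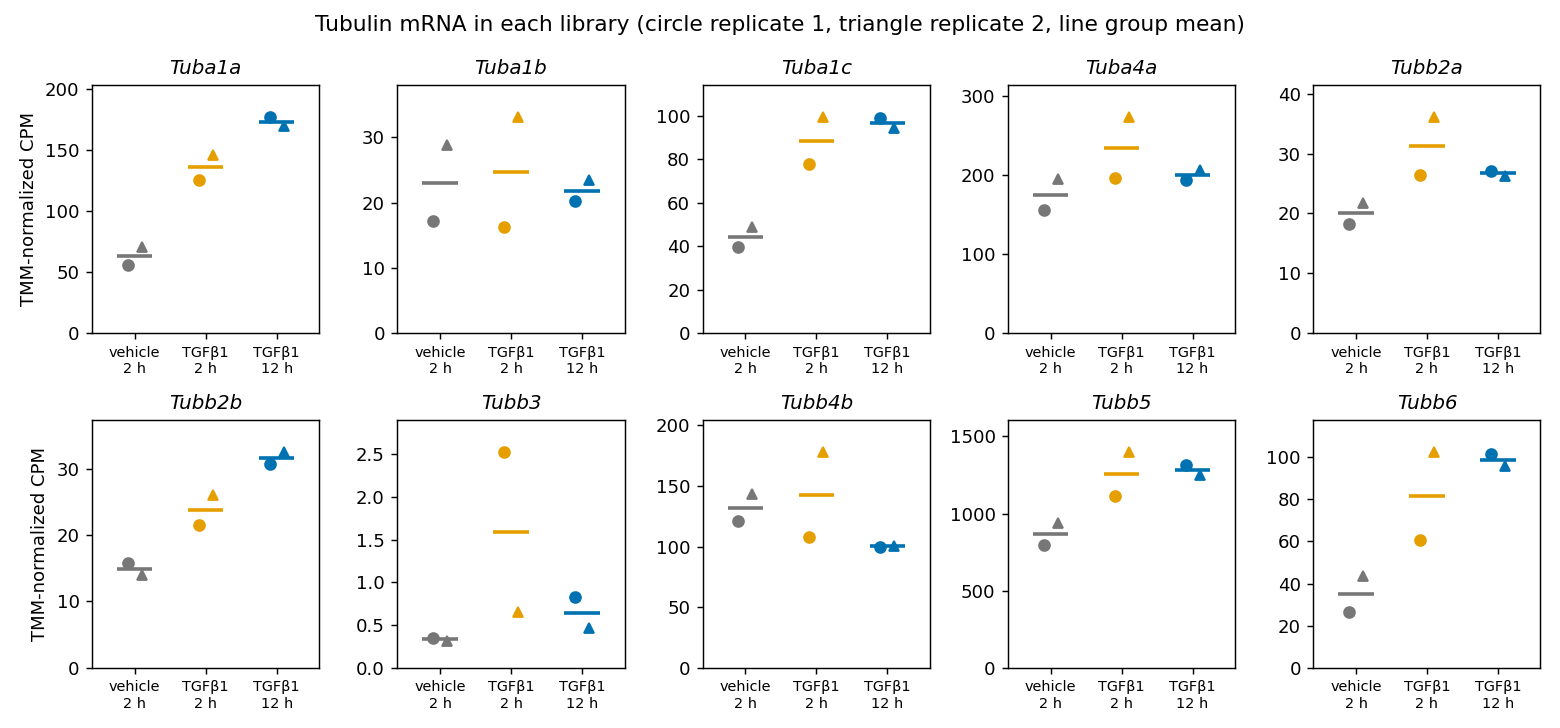
TMM-normalized CPM of each tubulin (vertical axes, each from 0 and with its own scale) in the 3 groups, with replicate 1 as circles, replicate 2 as triangles and the group mean as a line. Tuba1a goes from 55.9 and 70.8 CPM in veh to 177 and 170 at 12 h, the Tuba1b points of the 3 groups overlap, and Tubb3 stays below 3 CPM throughout.

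Tuba1a, the α isotype best known from developing neurons, had the smallest adjusted p of the family at both times. Its normalized level was 55.9 and 70.8 CPM in the veh libraries, 125 and 146 at 2 h and 177 and 170 at 12 h. The groups did not overlap, and both 12 h libraries also exceeded both 2 h libraries. It was 2.15-fold higher than veh at 2 h (log2FC 1.10, SE 0.15, adjusted p = 0.0045 by edgeR's quasi-likelihood test) and 2.74-fold higher at 12 h (log2FC 1.45, SE 0.15, adjusted p = 0.00045). The further step from 2 h to 12 h did not pass the test (log2FC 0.35, SE 0.14, adjusted p = 0.10), but did with the replicate block (adjusted p = 0.024).

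Tuba1c, a widely expressed α isotype 76.3 kb from Tuba1a on chromosome 15, was also higher than veh at both times, at a lower level. It measured 39.5 and 48.8 CPM in veh, 77.8 and 99.4 at 2 h and 99.1 and 94.6 at 12 h. Every treated library lay above both veh libraries, and the treated groups overlapped each other. Tuba1c was 2.01-fold higher at 2 h (log2FC 1.00, SE 0.16, adjusted p = 0.0088 by edgeR) and 2.19-fold higher at 12 h (log2FC 1.13, SE 0.16, adjusted p = 0.0018). Without veh replicate 1 the call at 2 h was lost (adjusted p = 0.063).

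Tuba1b, also a widely expressed α isotype, lies 15.3 kb from Tuba1a on the same chromosome and was called at neither time. Values were 17.1 and 28.8 CPM in veh, 16.2 and 33.1 at 2 h and 20.2 and 23.4 at 12 h, and all groups overlapped. The log2FC was 0.10 (SE 0.37, adjusted p = 0.88 by edgeR) at 2 h and -0.07 (SE 0.37, adjusted p = 0.90) at 12 h. The SE was more than that of Tuba1a or Tuba1c, with replicates that differed by 0.74 on the log2 scale in veh and 1.02 at 2 h. Only 242 windows of this gene were countable, and its direction turned when veh replicate 1 or TGFb2h replicate 2 was left out at 2 h (log2FC -0.23 and -0.50) and when veh replicate 2 or TGFb12h replicate 1 was left out at 12 h (log2FC 0.35 and 0.016).

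Tuba4a, an α isotype whose protein ends without the terminal tyrosine that other α-tubulins carry, was counted over almost all of its transcript. Its level was 155 and 195 CPM in veh, 197 and 273 at 2 h and 194 and 207 at 12 h. The 2 h libraries were just above the veh libraries, while the 12 h libraries overlapped them. The differences did not pass the test after 2 h (log2FC 0.43, SE 0.18, adjusted p = 0.18 by edgeR) or at 12 h (log2FC 0.20, SE 0.18, adjusted p = 0.43). With the replicate block the 2 h difference passed (adjusted p = 0.020).

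**Figure D3:**
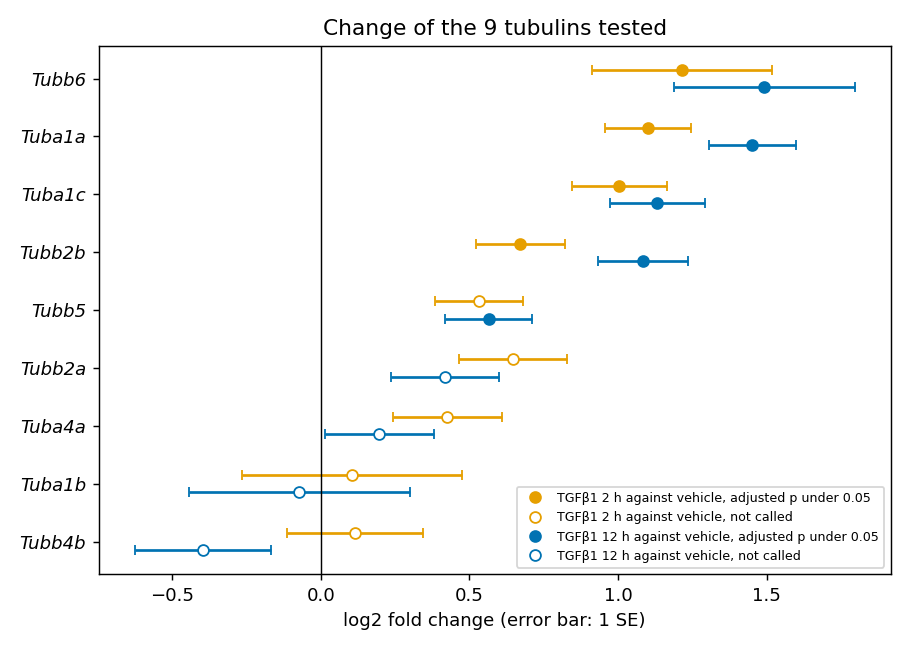
log2 fold change against veh with its standard error (horizontal axis) for the 9 tubulins tested, at 2 h (orange) and 12 h (blue), where filled points passed an adjusted p under 0.05 in edgeR's test. Tubb6 and Tuba1a have the highest values at both times, and Tubb4b the lowest at 12 h (-0.40).

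Among the β genes tested, Tubb6, a divergent isotype that is low in most tissues, had the highest fold. It measured 26.6 and 43.7 CPM in veh, 60.8 and 102 at 2 h and 102 and 96.1 at 12 h. No treated library fell within the veh range, although replicate 2 exceeded replicate 1 by 0.71 on the log2 scale in veh and 0.75 at 2 h. Tubb6 was 2.32-fold higher at 2 h (log2FC 1.22, SE 0.30, adjusted p = 0.042 by edgeR) and 2.81-fold higher at 12 h (log2FC 1.49, SE 0.30, adjusted p = 0.0080). The 2 h call was lost when libraries were scaled by total counts (adjusted p = 0.059), in a fit of only the 2 groups (0.11) and without veh replicate 1 (0.18), TGFb2h replicate 2 (0.088) or either 12 h library (0.11), and the 12 h call was lost without TGFb12h replicate 1 (adjusted p = 0.054).

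Tubb2b, a β isotype prominent in the nervous system, was 15.8 and 14.01 CPM in veh, 21.5 and 26.1 at 2 h and 30.7 and 32.5 at 12 h. Its 3 groups did not overlap. It was 1.59-fold higher at 2 h (log2FC 0.67, SE 0.15, adjusted p = 0.030 by edgeR) and 2.12-fold higher at 12 h (log2FC 1.08, SE 0.15, adjusted p = 0.0017). The 2 h call was lost with total counts (adjusted p = 0.057), in a fit of only the 2 groups (0.087) and without any library other than TGFb2h replicate 1 (0.082 to 0.15). Its close copy Tubb2a, also a β isotype of class II, had 18.2 and 21.8 CPM in veh, 26.5 and 36.1 at 2 h and 27.2 and 26.3 at 12 h. All 4 treated libraries were above veh, but neither difference passed (log2FC 0.65, SE 0.18, adjusted p = 0.061 at 2 h, and 0.42, SE 0.18, adjusted p = 0.11 at 12 h, by edgeR). DESeq2 called the 2 h difference (adjusted p = 0.028), and the replicate block in edgeR both (adjusted p = 0.010 and 0.031). Without TGFb2h replicate 1, edgeR called the 2 h differences of Tubb2a (adjusted p = 0.016), Tubb5 (0.019) and Tuba4a (0.030), and without TGFb2h replicate 2 the 12 h difference of Tubb2a (0.044).

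Tubb5, the main β isotype of most proliferating cells, had the highest level of all. It measured 799 and 938 CPM in veh, 1114 and 1398 at 2 h and 1317 and 1252 at 12 h. Treated and veh libraries did not overlap at either time. The 1.45-fold difference at 2 h missed the threshold (log2FC 0.53, SE 0.15, adjusted p = 0.057 by edgeR), was called by DESeq2 (adjusted p = 0.0077), with no filter (0.047) and with the replicate block (0.0094), while the 1.48-fold rise at 12 h passed it (log2FC 0.56, SE 0.15, adjusted p = 0.021). At 12 h the call was lost with total counts (adjusted p = 0.066) and without veh replicate 1 or either 12 h library (0.088 to 0.12). The log2FC of Tubb5 from 2 h to 12 h was 0.03 (SE 0.15).

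Tubb4b, the β isotype found in cilia as well as in other cells, was called at neither time. It measured 121 and 143 CPM in veh, 108 and 178 at 2 h and 100 and 100 at 12 h. The 2 h libraries spanned the veh range, and both 12 h libraries lay under every other library. The difference at 12 h did not pass (log2FC -0.40, SE 0.23, adjusted p = 0.21 by edgeR) but was called lower in a fit of only the 2 groups (adjusted p = 0.019) and without either 2 h library (adjusted p = 0.019 and 0.022). Tubb3, the β isotype used as a neuronal marker, had 6 and 5 counts in veh, 50 and 13 at 2 h and 19 and 9 at 12 h. With no filter its log2FC was 2.23 at 2 h (adjusted p = 0.091 by edgeR) and 0.95 at 12 h (adjusted p = 0.42), and a single library, TGFb2h replicate 1, held most of the 2 h counts.

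From 2 h to 12 h, 0 of the 9 tubulins were called higher and 0 lower, against 15.2% and 18.9% of all genes tested. At an unadjusted p under 0.05 there were 2, Tuba1a and Tubb2b, both higher, a threshold at which the share of all genes was not counted. By adjusted p, limma-voom and DESeq2 also called 0. The median log2FC of the 9 was 0.03, with a range from -0.51 for Tubb4b to 0.41 for Tubb2b (adjusted p = 0.13 and 0.072 by edgeR). With the replicate block, Tuba1a and Tubb2b were called higher (adjusted p = 0.024 and 0.032 by edgeR) and Tubb4b lower (0.028), beside 23.3% and 25.2% of all genes. Without TGFb2h replicate 2, Tubb2b was called higher (log2FC 0.56, adjusted p = 0.041 by edgeR), and without TGFb2h replicate 1, Tubb4b was called lower (log2FC -0.83, adjusted p = 0.0036).

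The replicates of the veh and 2 h groups differed in the same way in several tubulins. Replicate 2 was higher in 8 of the 9 tested genes in veh and in 9 of 9 at 2 h, but in 4 of 9 at 12 h. A list of 14 genes of the G2 and M phases, such as Mki67, Top2a and Ccnb1, was divided likewise, with a summed level of 1058 and 2212 CPM in the veh libraries and 1063 and 2095 CPM in the 2 h libraries. At 12 h the sum was 43.3 and 49.8 CPM, and all 14 genes were called lower (log2FC -4.33 to -6.19), while 0 of 14 were called at 2 h by edgeR, also 0 at an unadjusted p under 0.05. Tuba1b, Tubb4b and Tubb6 had the widest gaps between 2 h replicates among tested tubulins (1.02, 0.72 and 0.75 on the log2 scale). Over all genes tested, the replicate differences in veh and at 2 h correlated at 0.71, so a shared deviation was not particular to tubulins. The share of all genes higher in replicate 2 was not counted. The part of the cell cycle genes in the tubulin values was not tested.

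**Figure D4:**
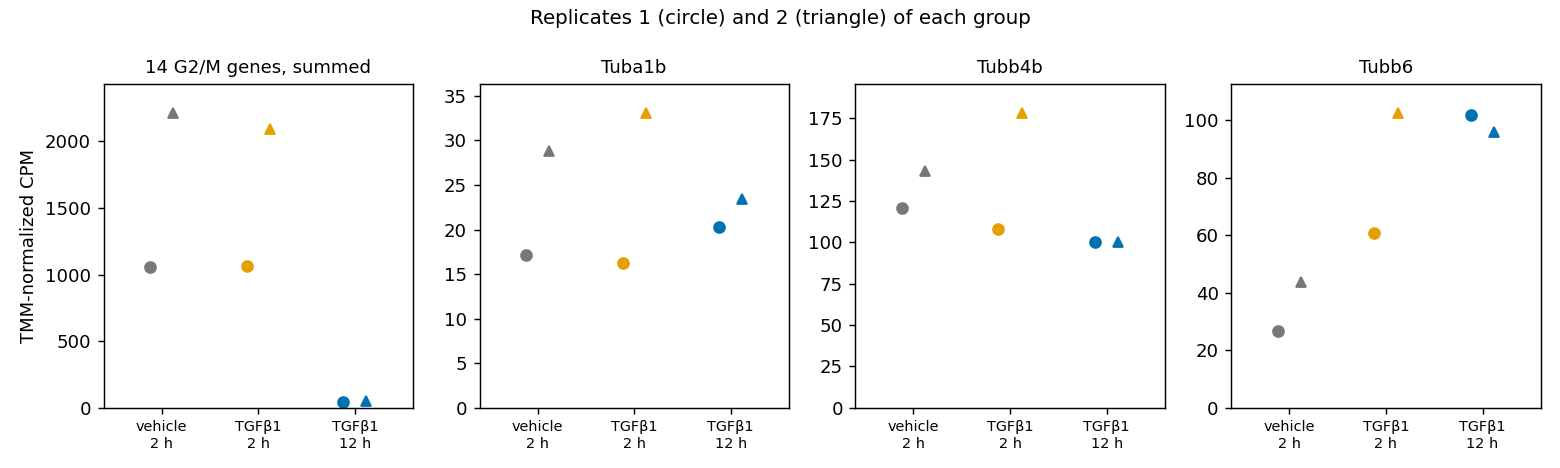
TMM-normalized CPM (vertical axes from 0) of 14 G2/M genes summed and of Tuba1b, Tubb4b and Tubb6 in each library, with replicate 1 as circles and replicate 2 as triangles. Replicate 2 is higher in veh and at 2 h in all 4 panels, and at 12 h the G2/M sum is 43.3 and 49.8 CPM.

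Because longer transcripts give more reads, levels of different genes were compared as CPM per kb of transcript. In veh, Tubb5 led at 328 ± 37.2 CPM per kb (mean ± SD, n = 2), 3.85-fold above the next gene. Tuba4a (85.3 ± 13.5) and Tubb4b (82.6 ± 9.92) followed and overlapped each other. Tuba1a (38.5 ± 6.40) stood apart below them. Tuba1c (22.3 ± 3.33), Tubb6 (20.03 ± 6.88), Tuba1b (13.2 ± 4.73) and Tubb2a (12.6 ± 1.58) formed a run in which neighbours overlapped, and Tubb2b (7.76 ± 0.67) and Tubb3 (0.18 ± 0.013) closed the order, each apart from its neighbours. The order rests on the divisor for genes with few unique windows. Per kb of unique windows, Tubb5 (341 ± 38.6) still led in veh, but Tubb4b (204 ± 24.5), Tuba1a (142 ± 23.6) and Tuba1b (94.8 ± 34.1) came before or beside Tuba4a (88.9 ± 14.1).

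The isotypes were also set side by side as shares of the α and of the β pool. Per kb of transcript, Tuba1a was 24.3% and 24.0% of α-tubulin mRNA in the veh libraries, 34.5% and 30.5% at 2 h and 40.7% and 38.9% at 12 h. Tuba4a went the other way, from 54.3% and 53.0% to 43.4% and 45.7% and then to 35.9% and 38.02%. Neither gene's shares overlapped between any of the 3 groups. A share also depends on the other genes of its pool, and the mean Tuba4a level did not fall below that of veh. It was 85.3 ± 13.5 CPM per kb of transcript in veh, 114.5 ± 26.4 at 2 h and 97.7 ± 4.33 at 12 h. Tuba1c had 14.1% ± 0.38 in veh, 17.6% ± 0.40 at 2 h and 18.5% ± 0.68 at 12 h, and Tuba1b 8.13% ± 1.54, 5.37% ± 1.62 and 4.73% ± 0.47. In the β pool Tubb5 held 72.8% ± 0.61, 74.1% ± 3.04 and 76.1% ± 0.42, while Tubb4b held 18.3% ± 0.027, 13.7% ± 2.08 and 9.83% ± 0.32. Per kb of transcript, the mean Tubb4b level was 82.6 CPM in veh, 89.4 at 2 h and 62.7 at 12 h. The mean Tuba1b level was 13.2, 14.1 and 12.5 CPM, so at 2 h neither mean was lower than in veh. Tubb6 made up 4.38% ± 0.99 of β-tubulin mRNA in veh, 7.10% ± 1.18 at 2 h and 8.81% ± 0.088 at 12 h. With unique windows as the divisor the sizes differed and the directions of Tuba1a (36.7%, 47.2% and 54.1%), Tuba4a (23.1%, 18.3% and 14.2%), Tubb4b (33.4%, 26.1% and 19.5%) and Tubb6 (3.34%, 5.66% and 7.33%) did not. The summed α level was 0.35 ± 0.019 of the summed β level in veh, 0.40 ± 0.0024 at 2 h and 0.41 ± 0.014 at 12 h per kb of transcript, and 0.63 ± 0.058, 0.78 ± 0.016 and 0.90 ± 0.020 per kb of unique windows. These shares are descriptions with 2 libraries a group, and no test was run on them.

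**Figure D5:**
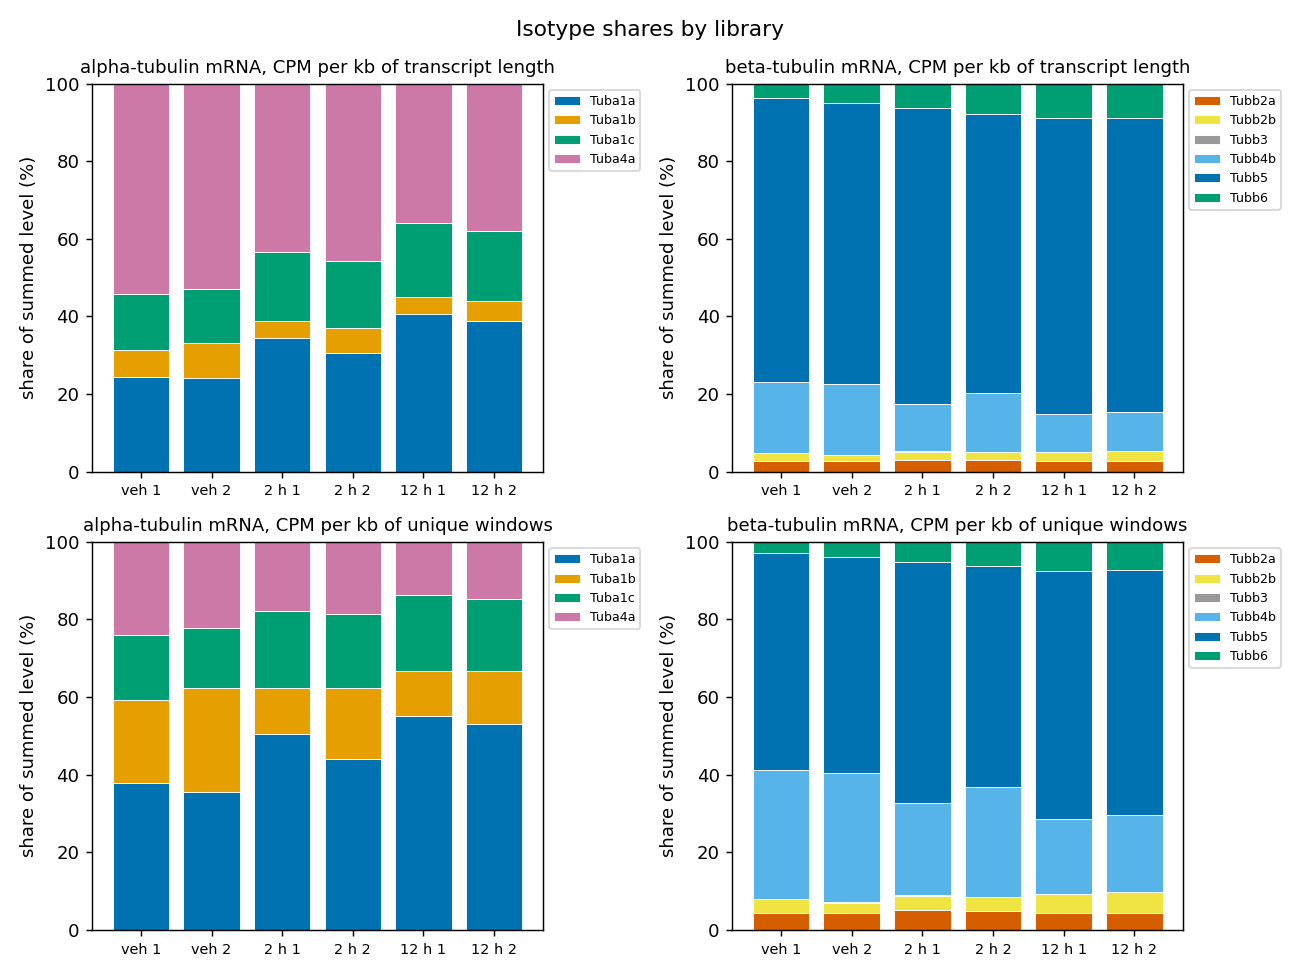
Share of each isotype in the summed α-tubulin (left) and β-tubulin (right) level of every library, as percent on the vertical axis, with levels per kb of transcript (top) and per kb of unique windows (bottom). The Tuba1a segment widens and the Tuba4a and Tubb4b segments narrow from veh to 12 h with both divisors.

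Reads were also counted for a pseudogene of the α genes. Gm6682, an α-tubulin pseudogene on chromosome 12 that was picked after its values were seen, shares 533 windows with Tuba1a, 587 with Tuba1b and 604 with Tuba1c. Gm6682 had 205 and 210 counts in veh, 406 and 601 at 2 h and 648 and 575 at 12 h. It was called higher at both times (log2FC 1.00, SE 0.20, adjusted p = 0.022 at 2 h, and 1.18, SE 0.20, adjusted p = 0.0041 at 12 h, by edgeR). Whether these counts come from transcripts of Gm6682 or from reads of its parent genes was not tested.

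Tuba1a, Tuba1b and Tuba1c lie within 106.7 kb on chromosome 15, Tuba1b at 98761856 to 98764996 and Tuba1a at 98780272 to 98783982 on the minus strand and Tuba1c at 98860322 to 98868536 on the plus strand, each with 4 exons. The 250 bases upstream of their GENCODE starts are shown because Tuba1a and Tuba1c rose while Tuba1b did not pass the test (chr15:98783983-98784232 minus strand, chr15:98764997-98765246 minus strand and chr15:98860072-98860321 plus strand, NCBIM37). Capitals mark the letters of searched motifs on either strand: the CCAAT box (CCAAT), the GC box (GGGCGG), the TATA box (TATAAA), the CHR element (TTTGAA), the AP-1 site (TGAGTCA), an element bound by SMAD proteins (CAGACA) and the CArG box.
Tuba1a: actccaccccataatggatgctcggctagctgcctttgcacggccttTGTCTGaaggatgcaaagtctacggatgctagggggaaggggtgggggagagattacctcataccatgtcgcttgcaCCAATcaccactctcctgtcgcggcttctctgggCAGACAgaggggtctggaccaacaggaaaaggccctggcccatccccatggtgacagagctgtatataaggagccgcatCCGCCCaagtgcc
Tuba1b: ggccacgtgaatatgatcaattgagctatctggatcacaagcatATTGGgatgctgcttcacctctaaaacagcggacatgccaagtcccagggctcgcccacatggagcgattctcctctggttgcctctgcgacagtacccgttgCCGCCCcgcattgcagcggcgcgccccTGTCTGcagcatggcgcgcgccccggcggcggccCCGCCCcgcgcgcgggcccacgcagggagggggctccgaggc
Tuba1c: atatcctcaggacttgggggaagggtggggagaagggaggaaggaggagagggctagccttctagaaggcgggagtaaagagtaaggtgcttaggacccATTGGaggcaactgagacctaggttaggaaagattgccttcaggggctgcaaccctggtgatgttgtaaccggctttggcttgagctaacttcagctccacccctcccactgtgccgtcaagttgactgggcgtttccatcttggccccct
A CAGACA match stood 203 and 92 bases upstream of the Tuba1a start and 76 bases upstream of the Tuba1b start, and there was none in the Tuba1c window. CAGACA occurred in 15.3% of 22380 such windows of protein-coding genes, and in 3 of the 10 tubulins. CCAAT was present in all 3 windows, in 7 of the 10 tubulins and in 7834 of all windows. GGGCGG was in 7 of the 10 tubulins, among them Tuba1a and Tuba1b but not Tuba1c, and in 39.6% of all windows. TTTGAA was found only at Tubb4b among the 10 (14.8% of all windows), TATAAA only at Tubb2a (12.3%), and TGAGTCA (3.85%) and the CArG box (1.34%) at none. These matches are letters in a window and were not tested as sites.

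By the measure of likeness used here, the root mean square difference of centred log2 levels over the 6 libraries, the genes nearest to Tubb5 were Lsm6, Ccdc124, Suclg1, Map3k4 and Snrpa, at 0.035 to 0.058. With 8.81% of all tested genes within 0.2 of it, the profile of Tubb5 was a frequent one. For Tubb6 the nearest were Fam171a2, Soga1, Kdm6b, Vangl2 and Plau, at 0.15 to 0.19, and 0.054% of tested genes came within 0.2.

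Other genes of the tubulin pathway were taken as lists, whose counts stand beside 9.91% of all tested genes called higher and 5.25% lower at 2 h, and 21.8% and 21.5% at 12 h. Counts with the replicate block stand beside 16.4% higher and 12.7% lower at 2 h, and 27.8% and 27.5% at 12 h. Of 21 genes for tubulin folding, the CCT chaperonin, prefoldin and the tubulin cofactors, 1 rose and 1 fell at 2 h, and 9 rose and 2 fell at 12 h. With the replicate block, 2 rose and 3 fell at 2 h, and 12 rose and 3 fell at 12 h. The highest of the 9 called at 12 h without the block was Arl2, a regulator of the cofactors, at a log2FC of 0.61. Tbcel, a cofactor-like protein that destabilizes tubulin, was the gene that fell at 2 h, by 1.35 on the log2 scale, and it was also lower at 12 h (log2FC -1.07). The median log2FC of the list was 0.07 at 2 h and 0.30 at 12 h. The 3 autoregulation genes Ttc5, Scaper and Cnot11 had log2FC between -0.26 and -0.20 at 2 h and between 0.02 and 0.17 at 12 h, none called, and Ttc5 was higher at 12 h than at 2 h (log2FC 0.42, adjusted p = 0.048 by edgeR).

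Of 19 tested genes for microtubule nucleation, 2 rose and 0 fell at 2 h, and 2 rose and 2 fell at 12 h (2 and 1, then 2 and 5 with the replicate block). Tubg1, the γ-tubulin at the core of nucleation, had a log2FC of 0.20 at 2 h and -0.08 at 12 h (not called). Haus5, a subunit of the augmin complex that branches microtubules, was lower at 12 h by a log2FC of -1.99. The other α, β, δ and ε tubulins passed the filter in 3 of 8 cases, and Tube1 (ε-tubulin) was the gene called among them, lower at 12 h with a log2FC of -1.36.

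Of 17 tested genes for enzymes that modify tubulin, on the tail or elsewhere, 3 were higher at 2 h and 6 at 12 h, with 0 lower at either time. With the replicate block 5 and 7 were higher, beside 16.4% and 27.8% of all genes. The median log2FC of the list was 0.14 at 2 h and 0.13 at 12 h. Hdac6, which removes acetyl groups from α-tubulin, was among those higher at both times (log2FC 0.52 and 0.75). Vash1 and Vash2, the peptidases that remove the terminal tyrosine, were higher at 12 h with log2FC of 2.93 and 1.35. Vash1 went from 2.35 and 3.44 CPM in veh to 3.69 and 6.00 at 2 h and 19.5 and 24.6 at 12 h. Ttl, the ligase that adds the tyrosine back, was also higher at 12 h (log2FC 0.82, adjusted p = 0.0085 by edgeR). Vash1 and Ttl were called higher at 2 h as well with the replicate block (adjusted p = 0.025 and 0.036 by edgeR).

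Among 28 tested microtubule-associated proteins, 6 rose and 0 fell at 2 h, and 13 rose and 5 fell at 12 h. With the replicate block 6 rose and 2 fell at 2 h, and 17 rose and 6 fell at 12 h. Map6, which stabilizes microtubules, rose by a log2FC of 1.49 at 2 h and 1.82 at 12 h, and Map7d1, a relative of the kinesin cofactor MAP7, by 1.38 and 1.30. Map4, the most widely used of the stabilizing proteins outside neurons, was at 83.0 CPM in veh and 180.5 CPM at 12 h, a called difference. Those lower at 12 h included Fignl1 (log2FC -3.58) and Fign (-1.88), which belong to the family of severing enzymes, and Mapt, the tau protein (-1.65). Fign was called lower at 2 h as well with the replicate block (adjusted p = 0.020 by edgeR). The median log2FC of this list was 0.07 at 2 h and 0.35 at 12 h.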

How the data were processed

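RNA of NMuMG cells was measured in 6 libraries (50-base single-end reads, stranded total RNA kit). Per the study's methods, the authors filtered reads with FASTQ Toolkit, aligned them to mm9 with subjunc of Rsubread, kept unique alignments, removed duplicates with SAMtools 0.1.19 and counted reads over exons of UCSC genes with featureCounts by strand. The deposited values are raw counts for 21240 genes, checked to be whole numbers. Tubb5 had 5.23 to 11.7 counts for each possible start position, so reads sharing a start were still present. The submitters' processing notes also list limma 3.34.9 and edgeR 3.20.9.

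The main test was the quasi-likelihood F test of edgeR 4.0.16 (R 4.3.3) with TMM factors, in 1 fit of 3 groups, for the 11080 genes that reached 2 CPM in 2 or more libraries, two-sided, with Benjamini-Hochberg adjustment within each contrast and calls at 0.05. The standard error is the absolute log2FC divided by the square root of F. Depth was 14705886 to 23786993 counts per library. Alternatives were limma-voom (limma 3.58.1), DESeq2 1.42.0, other scaling factors and filters, a replicate block, fits of 2 groups and leaving out each library. The script was tested on simulated data. For likeness, 0.25 CPM was added as a pseudocount.

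Coding sequences, loci and 50-base windows came from GENCODE on NCBIM37, searched on both strands for exact matches. Tubb4b was matched through its synonym Tubb2c. The members, lists and tests were chosen with earlier results of these data known. Named were all members, from each list at most 3 called genes per direction and contrast with an absolute log2FC above 1, Ttc5, Tubg1 and Ttl, and the 5 nearest genes of 2 members. Arl2, Scaper, Cnot11, Hdac6, Gm6682, the TGFβ targets and the cell type and G2/M markers were named outside that rule, some of them after their values were seen. Same-numbered libraries deviated together (correlation over genes 0.71 for veh and TGFb2h, 0.26 for veh and TGFb12h and 0.39 for TGFb2h and TGFb12h). The block is therefore given where it changes a call of the tubulins followed or a count of the pathway lists against veh. It is not given for every list gene. This pairing comes from the data, not the labels. The sample labels give no batch, so p-values measure the spread between these replicates.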

Additional observations from a re-analysis of the deposited data

How the results depend on the processing

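The number of tubulins called higher at 2 h, 4 as reported, was 2 with total counts, 2 in a fit of only the 2 groups, 5 with no filter, 6 by DESeq2 and 7 with the replicate block, and 4 by limma-voom, with DESeq2 size factors and with at least 10 counts in every library. The share of all genes called also depends on the setting. It was 9.91% higher at 2 h in the main fit and 16.4% with the replicate block, and is not given for the other settings. Leaving out a library gave 1 to 7, fewest without veh replicate 1, 2 without TGFb2h replicate 2 or either 12 h library, and 7 without TGFb2h replicate 1. At 12 h, 5 higher became 4 with total counts, 6 with the replicate block and 3 to 6 on leaving out a library, fewest without TGFb12h replicate 1, and 0 lower became 1 (Tubb4b) in a fit of only the 2 groups and 0 to 1 on leaving out a library, 1 without either 2 h library. Between 2 h and 12 h the replicate block called 2 higher (Tuba1a and Tubb2b) and 1 lower (Tubb4b) where the unblocked fit called 0, and leaving out a 2 h library called 0 to 1 in each direction, Tubb2b higher without TGFb2h replicate 2 and Tubb4b lower without TGFb2h replicate 1. The cause was not tested. Against veh, the replicate block added Tuba4a, Tubb2a and Tubb5 at 2 h and Tubb2a at 12 h, and changed no other tubulin call in these 2 comparisons.

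Total counts moved the median log2FC of all genes at 2 h from -0.01 to -0.12, and the log2FC of Tuba1b at 2 h to -0.0014. On leaving out a library, log2FC ranges that crossed 0 were, at 2 h, Tuba1b -0.50 to 0.52 and Tubb4b -0.29 to 0.41, at 12 h Tuba1b -0.40 to 0.35, and from 2 h to 12 h Tuba1b -0.60 to 0.42, Tuba1c -0.037 to 0.31, Tuba4a -0.45 to 0.026, Tubb2a -0.43 to 0.011, Tubb5 -0.12 to 0.20 and Tubb6 -0.051 to 0.70. No value on the other side of 0 from the reported one was called. Tuba1a kept its call at 2 h and 12 h under all 14 alternatives (log2FC 0.94 to 1.28 and 1.29 to 1.63), as did Tuba1c (0.98 to 1.29) and Tubb2b (0.96 to 1.17) at 12 h. Of 30 group levels per length, 20 moved by more than 1 SD when unique windows replaced transcript length. Shares by unique windows were added after seeing the data.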
